A study of Homo sapiens with 6 samples.

Results

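H/ACA and Cajal body small RNAs are short nuclear guide RNAs, and their genes were chosen by name, as every gene in the count table whose symbol begins with SNORA and a digit or with SCARNA. There were 211 of them among 38167 genes, 182 SNORA and 29 SCARNA genes on 23 chromosomes. They were counted in RNA of small extracellular vesicles shed by Cal27 spheroids, Cal27 being an established line of human tongue squamous carcinoma cells. The vesicles were taken from the culture medium by dielectrophoresis, an electric field method. Per the labels' protocols their total RNA was sequenced, while the sample titles read EV (extracellular vesicle) mRNA. One group of 3 libraries came from spheroids in stiff Matrigel at 12 mg/mL and the other group of 3 from spheroids in soft Matrigel at 3 mg/mL. All 6 came from day 14, and no genetic change or drug was named for any of them. Matrigel is a gel of basement membrane proteins whose concentration changes its composition per volume together with its stiffness, so a response to either cannot be told apart here. The titles name the libraries biological replicates without saying that they came from separate cultures, so a p-value measures the spread between these libraries, which may be technical.

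H/ACA RNAs fold into paired hairpins followed by an H box and an ACA box and carry dyskerin, NHP2, NOP10 and GAR1. By base pairing they direct the change of chosen uridines to pseudouridine, most SNORA RNAs in ribosomal RNA within the nucleolus. SCARNA RNAs reside in Cajal bodies and guide the modification of spliceosomal RNAs, and some of them carry C and D boxes, which direct methylation of the ribose, alone or joined to an H/ACA domain. Most of these genes lie in introns of host genes and are cut out of the spliced intron.

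The sequences below show what the symbols stand for, and why some of their counts cannot be assigned one by one. SNORA78 had the highest level among SNORA genes with a sequence (chr16:1965184-1965310, plus strand). SNORA73B is a copy of U17, which acts in cleavage of the ribosomal RNA precursor and not in pseudouridylation (chr1:28508558-28508762, plus strand). SNORA36A and SNORA56 lie within DKC1, the gene of dyskerin itself (chrX:154768528-154768659 and chrX:154774998-154775126, plus strand). Capitals mark the ACA box at the 3′ end and the match to the H box, ANANNA, nearest the middle, which SNORA78 did not hold in these letters.
SNORA78: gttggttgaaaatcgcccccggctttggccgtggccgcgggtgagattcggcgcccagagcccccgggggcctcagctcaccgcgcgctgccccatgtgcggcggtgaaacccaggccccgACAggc
SNORA73B: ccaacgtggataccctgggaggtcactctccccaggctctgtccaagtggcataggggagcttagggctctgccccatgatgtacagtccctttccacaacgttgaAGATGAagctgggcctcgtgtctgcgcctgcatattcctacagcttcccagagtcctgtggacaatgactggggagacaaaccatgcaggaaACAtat
SNORA36A: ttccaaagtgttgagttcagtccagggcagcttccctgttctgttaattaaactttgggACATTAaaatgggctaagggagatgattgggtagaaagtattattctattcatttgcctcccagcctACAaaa
SNORA56: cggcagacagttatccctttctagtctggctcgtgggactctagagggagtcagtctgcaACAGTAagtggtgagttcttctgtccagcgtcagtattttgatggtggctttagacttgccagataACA
SNORA7A, within RPL32 (chr3:12840312-12840450, minus strand), and SNORA7B, within RPL32P3 (chr3:129397210-129397348, minus strand), are near-identical copies. They differ by G26C and C114T, counted from 1 at the 5′ end with the base of SNORA7A first, and the capitals mark those bases.
SNORA7A: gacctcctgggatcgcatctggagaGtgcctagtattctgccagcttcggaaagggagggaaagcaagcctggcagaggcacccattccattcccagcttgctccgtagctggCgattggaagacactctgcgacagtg
SNORA7B: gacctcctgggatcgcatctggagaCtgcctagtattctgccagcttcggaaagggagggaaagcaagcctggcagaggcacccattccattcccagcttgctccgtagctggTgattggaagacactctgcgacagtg

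Sequences came from GENCODE 29 transcripts, which held 156 members at their RefSeq place, and coordinates are those of RefSeq on GRCh38. Motifs were searched on the RNA strand. An ACA beginning in the last 6 bases was found in 120 of 133 SNORA sequences (90.2%) and 17 of 23 SCARNA sequences (73.9%), against 5.08% of 35116 promoter windows of 135 bases. TGATGA, the core of the C box, stood in 10 of 23 SCARNA sequences (43.5%) and 5 of 133 SNORA sequences (3.76%), against 2.66% of those windows. The H box pattern was too loose to tell them apart, at 98.5% of SNORA sequences and 69.0% of windows. CTGA, the D box, was likewise loose, at 48.1% of SNORA and 69.6% of SCARNA sequences and 44.9% of windows. At 95% identity or more there were 10 pairs of copies among 17 members, 3 of the pairs identical, and counts of such copies are uncertain one by one.

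Libraries held 2697502 to 2977837 counts in stiff and 2445498 to 2545385 in soft. As a check of the cell type, the 10 squamous epithelial markers summed to 864 to 950 counts in stiff and 768 to 866 in soft, with KRT5, KRT14, TP63 and the rest above 0. Markers of other types were also above 0. Those of leukocytes (4 genes) summed to 197 to 226 in stiff and 230 to 254 in soft, those of fibroblasts (4 genes) to 457 to 549 in stiff and 506 to 522 in soft, and those of endothelium (3 genes) to 391 to 395 in stiff and 392 to 499 in soft. Per kb of exon the median was 20.7 counts for squamous markers and 16.9, 10.5 and 15.7 for leukocyte, fibroblast and endothelial ones. Among these lists KRT14, a keratin of basal cells, was called, at 33.4 ± 6.17 CPM in stiff and 20.6 ± 3.80 CPM in soft (SD, n = 3 each; edgeR adjusted p = 0.0281; CPM are counts scaled to library size by TMM, the trimmed mean of M-values). The part of these levels in the results below was not tested.

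Guide RNAs of both kinds were barely represented in the vesicle libraries. The median member had 1.83 counts per library, and 4 of 211 averaged 10 counts or more. Some 39 members averaged under 1 count. Each member was seen in at least 1 library, 82 were seen in all 6, and SNORA48, SNORA72, SNORA36B and SNORA35B were seen in 1. Members with a count numbered 173, 175 and 167 in the stiff libraries and 163, 170 and 159 in the soft ones. The 4 members with the most counts held 12.2% of the members' counts and the first 20 held 31.1%. Over the 6 libraries the counts of a member scattered little more than counting alone gives, with a chi-square per degree of freedom of 1.09 over all 211. At counts this low, counting error dominates that value, so it cannot show whether the libraries were alike. Over all 31074 genes tested it was 9.02, but these had passed a filter on low counts, so the values are not comparable.

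Per length the members stood near genes that squamous cells are not known to use. Olfactory receptor genes, which serve smell neurons, had a median of 11.4 counts per kb of exon (417 genes with a length, interquartile range 8.87 to 15.9). SNORA genes had a median of 13.0 counts per kb (interquartile range 7.77 to 20.3) and SCARNA genes 12.0 (8.52 to 18.0). MicroRNA genes, shorter at a median of 80 bp, had 18.8 counts per kb, and box C/D snoRNA genes (SNORD, 357 genes, median length 81 bp) had 14.4. A fragment that reaches over the end of a gene is counted in it, so a short gene gains per kb, and small differences between these medians cannot be read as levels. Above the 95th percentile of the olfactory receptor genes (28.2 counts per kb) lay 21 of 182 SNORA and 2 of 29 SCARNA genes. SNORA114, at 87.5 counts per kb, was the single member above the highest olfactory receptor gene (81.4). It overlaps an exon of MAD1L1, a gene of the mitotic checkpoint, but its own strand was not known, so the overlap may be on either strand.

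**Figure D1:**
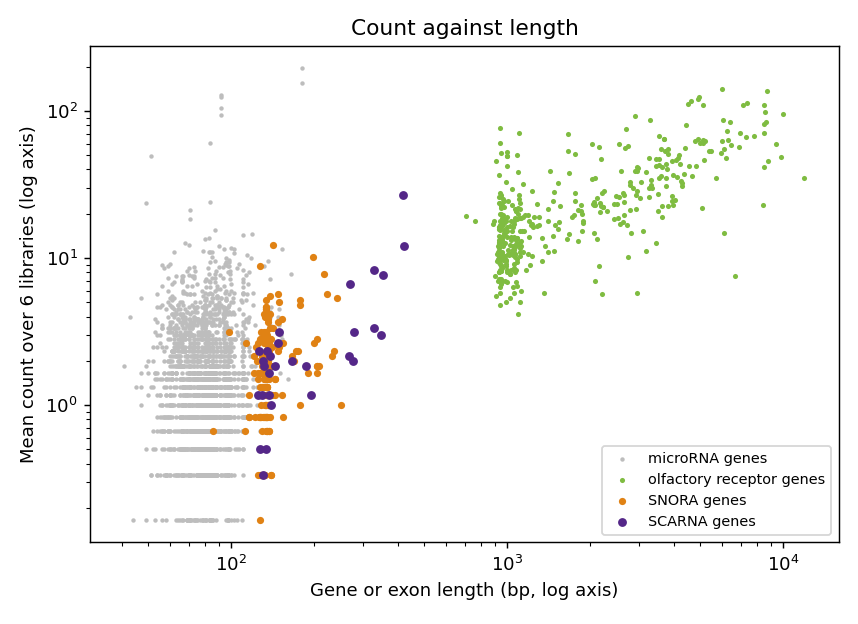
Mean count over the 6 libraries against gene length (exon length for olfactory receptor genes), both on log axes, with each point a gene. SNORA and SCARNA genes, at medians of 134 and 148 bp, lie along a band from the microRNA genes to the olfactory receptor genes, and SCARNA2 (420 bp, 26.8 counts) is the highest of the members.

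Length and position went along with the count. Across members the mean count had a Spearman rho of 0.37 with length (n = 211) and 0.30 with the percent of G and C (n = 156), as a description of genes that share libraries. SNORA genes inside an exon of another gene on the same strand had a median of 16.4 counts per kb (48 genes), those in introns 11.1 (81 genes) and those between genes 11.0 (8 genes). For SCARNA genes the medians were 25.0 in exons (6 genes) and 10.7 in introns (18 genes). GENCODE gave no strand for 45 members. Whether a read over a member and an exon of its host was counted for both was not given in the sources used here.

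SCARNA2, a box C/D guide of U2 RNA that lies in an exon of the unnamed gene AL356488.2, stood apart from the rest at the top of the order by CPM, which is not scaled to length. Per kb SCARNA2, with a length of 420 bp, had 63.9 counts, below SNORA114 (87.5) and SNORA78 (69.6). It had 22, 30 and 24 counts in stiff libraries (replicates 1 to 3) and 28, 34 and 23 in soft ones. That is 9.81 ± 1.26 CPM in stiff and 10.4 ± 1.83 CPM in soft (SD, n = 3 each). The groups overlapped, and the log2 fold change was −0.09 ± 0.28 (SE; edgeR quasi-likelihood test, adjusted p = 0.961). Over the 6 libraries its lowest level, 8.67 CPM, was above the highest of the next member, SNORA114 (7.92). Each later neighbour among the first 20 overlapped the one before it in range, so their order is not settled.

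**Figure D2:**
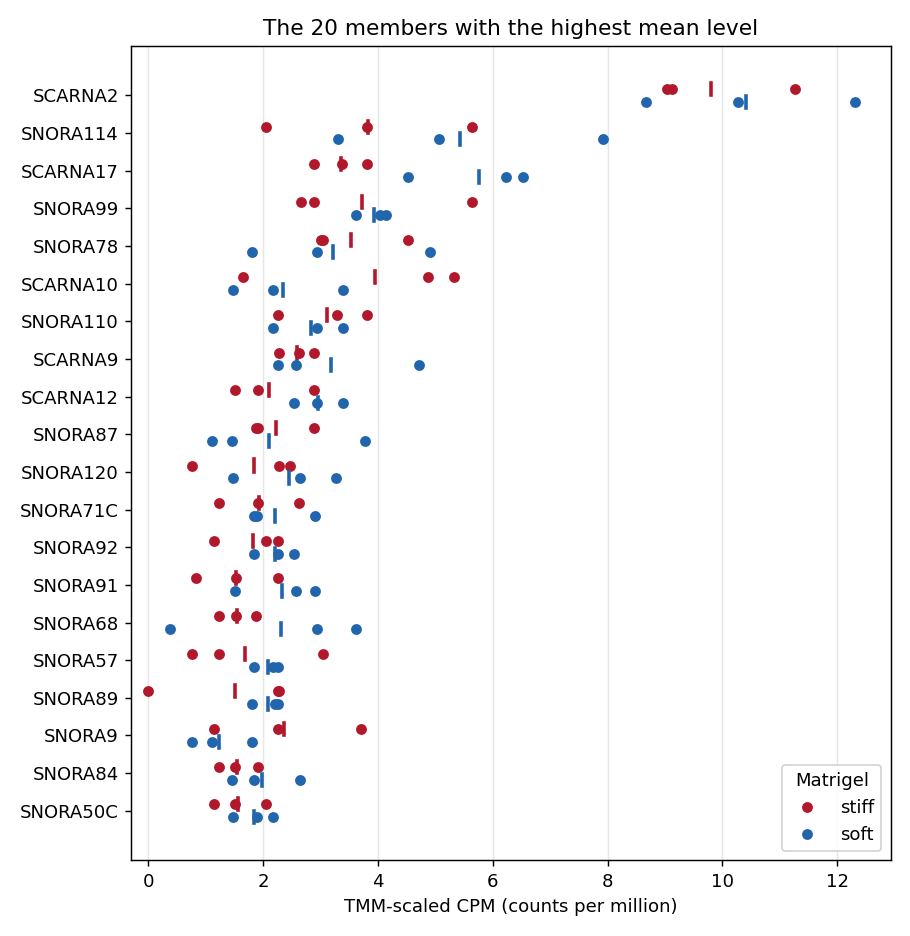
TMM-scaled CPM of the 20 members with the highest mean level, each point a library and each tick a group mean, stiff above soft in each row. SCARNA2 lies at 8.67 to 12.3 CPM, to the right of all other members, and the stiff and soft ranges overlap in all rows but that of SCARNA17.

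Among Cajal body RNAs of the C/D type, SCARNA17, which guides methylation of U12 and U4 RNA, had 7, 9 and 10 counts in stiff libraries and 17, 18 and 12 in soft ones. Its levels were 3.35 ± 0.463 CPM in stiff and 5.76 ± 1.08 CPM in soft (SD, n = 3 each), and the groups did not overlap. The log2 fold change of −0.77 ± 0.41 did not pass the test (edgeR adjusted p = 0.550). SNHG22, a long non-coding gene whose exon holds SCARNA17, had 11, 14 and 20 counts in stiff and 17, 19 and 16 in soft libraries. SCARNA9, a guide of U2 RNA in an intron of CEP295, had 7, 7 and 6 counts in stiff and 7, 13 and 6 in soft. With SCARNA7 in KPNA4, another box C/D guide, these 4 genes summed to 43, 48 and 44 counts in stiff and 56, 67 and 42 in soft, a ratio of scaled levels of 0.864 (stiff over soft) with a counting interval of 0.681 to 1.09.

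RNAs with joined C/D and H/ACA domains had no separation of the groups as a sum. SCARNA10, a guide of U5 RNA in NCAPD2, a condensin gene, had 4, 13 and 14 counts in stiff libraries and 4, 6 and 9 in soft ones, or 3.95 ± 2.01 CPM in stiff and 2.34 ± 0.974 CPM in soft (SD, n = 3 each). SCARNA12, in PHB2, a prohibitin gene, had 7, 4 and 5 counts in stiff and 8, 7 and 9 in soft. Both overlapped between the groups once scaled. With SCARNA5 and SCARNA6, which share the host ATG16L1, they summed to 19, 19 and 21 counts in stiff and 19, 20 and 24 in soft, a ratio of 0.986 (counting interval 0.680 to 1.43).

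SNORA genes were led by SNORA114, with 5, 15 and 10 counts in stiff libraries and 9, 14 and 21 in soft ones. Its log2 fold change was −0.48 ± 0.41 (edgeR adjusted p = 0.762), and the groups overlapped. With stiff replicate 1 left out the SNORA114 value was −0.19, with stiff replicate 2 left out −0.86, with soft replicate 1 left out −0.73 and with soft replicate 3 left out −0.11. SNORA99, within the span of GATA4, had 7, 15 and 7 counts in stiff and 11, 10 and 11 in soft (log2 fold change −0.07 ± 0.43, adjusted p = 0.983). SNORA78, in an exon of SNHG9, had 11, 8 and 8 in stiff and 8, 5 and 13 in soft, while SNHG9 had 10, 12 and 9 in stiff and 13, 17 and 13 in soft. Stiff and soft libraries interleaved for SNORA78. SNORA110, within the span of ERI3, had 8, 6 and 10 counts in stiff and 8, 6 and 9 in soft. The other 11 SNORA genes among the first 20 members averaged 1.70 to 2.16 CPM, and stiff and soft overlapped in each. They were SNORA87, SNORA120, SNORA71C, SNORA92, SNORA91, SNORA68, SNORA57, SNORA89, SNORA9, SNORA84 and SNORA50C.

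Guide RNAs with known special roles were at the same low level. The U17 genes, SNORA73A and SNORA73B, both in the RCC1 and SNHG3 locus, had together 2, 5 and 3 counts in stiff libraries and 1, 7 and 3 in soft ones. SNORA36A and SNORA56, the guides within DKC1, had together 3, 6 and 4 in stiff and 3, 5 and 5 in soft, or 1.67 ± 0.525 CPM in stiff and 1.60 ± 0.433 CPM in soft (SD, n = 3 each). Of SNORA7A there were 4, 1 and 5 counts in stiff and 0, 3 and 4 in soft, and of its copy SNORA7B 1, 5 and 2 in stiff and 0, 2 and 1 in soft. For the U17 pair the ratio of scaled levels of 0.952 had a counting interval of 0.365 to 2.48, so a change of either sign within it was not detectable at this depth.

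Pooled over all 211 members, the scaled counts differed between the matrices by less than the SD of the soft libraries, though not of the stiff ones. Per kb the median member had 12.7 counts, near the 11.4 of olfactory receptor genes. How much of the pooled counts came from guide RNAs, and not from host transcripts or background, was not tested. The members summed to 466, 517 and 501 counts in stiff libraries and 496, 555 and 492 in soft ones. The pooled level was 192 ± 1.82 CPM in stiff and 189 ± 10.2 CPM in soft (SD, n = 3 each), and the groups overlapped. The ratio of stiff to soft was 1.01, with an exact 95% interval of 0.943 to 1.09 that covers counting error only. SNORA genes stood at 153 ± 0.320 CPM in stiff and 148 ± 5.46 CPM in soft, a ratio of 1.03 (0.950 to 1.12). SCARNA genes stood at 39.1 ± 1.96 CPM in stiff and 41.1 ± 6.49 CPM in soft, a ratio of 0.951 (0.810 to 1.11). Soft replicate 2 was the highest soft library in each of these sums. In bulk RNA, fewer vesicles that carry an RNA and less of it per vesicle cannot be told apart.

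**Figure D3:**
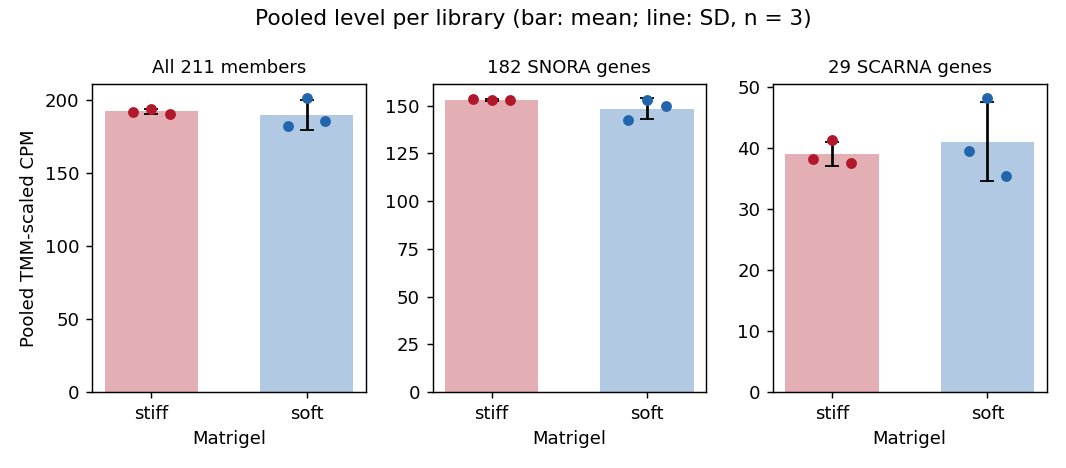
Pooled TMM-scaled CPM of all members, of SNORA genes and of SCARNA genes, with bars at the group mean, lines for the SD (n = 3) and a point per library. The mean of all members lies at 192 CPM in stiff and 189 CPM in soft, and the points of the groups overlap in each panel.

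Against all counts the picture depends on the denominator. The members took 0.0173% ± 0.000502 of all counts in stiff libraries and 0.0205% ± 0.00134 in soft ones (SD, n = 3 each), groups that did not overlap, at a ratio of 0.843. Library totals also moved the median gene, to a log2 fold change of −0.27, against −0.0048 with TMM. Without ribosomal RNA genes in the denominator the ratio for the members was 1.02. Box C/D snoRNA genes, pooled the same way with TMM, stood at 194 ± 11.2 CPM in stiff and 204 ± 8.65 CPM in soft, and their groups overlapped. Whether the H/ACA and C/D sums differ in their response was not tested.

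Single members gave no call between stiff and soft. Of the 211, 4 passed the filter on low counts (SCARNA2, SNORA114, SCARNA17 and SNORA99) and 0 of these had an edgeR adjusted p under 0.05, against 140 of 31074 genes tested (0.451%). Before adjustment 0 of the 4 had an edgeR p under 0.05, where 9.51% of genes did, and limma-voom and DESeq2 without its filter on mean count called 0 as well. The median log2 fold change of these 4 was −0.28, beside −0.0048 over all genes. Leaving out a library, with 5 or 6 members then tested, gave a median of −0.03 without stiff replicate 1 or stiff replicate 3, −0.50 without stiff replicate 2, and −0.07, −0.14 and −0.11 without soft replicate 1, 2 or 3. With every member kept in the edgeR fit whatever its counts, a choice made after the data were seen, 0 of 211 were called. In that fit 7 members had an unadjusted p under 0.05 (3.32%), against 9.5% of its 31281 genes. Genes other than members had all passed the filter on low counts, so these 2 shares are not matched for count. The median log2 fold change of the 211 there was 0.07, with an interquartile range of −0.44 to 0.77. Stiff and soft did not overlap for 13 members higher in stiff (6.16%), against 6.93% of the 38087 genes with any count, and for 9 members lower in stiff (4.27%), against 6.36%. Among genes averaging under 10 counts the shares were 13 of 207 members (6.28%), against 4.86% of 7071 genes, and 8 of 207 (3.86%), against 5.03%. These shares were near the background. Named here after their values were seen, the 13 included SCARNA14, SCARNA16, SNORA31, SNORA71B and SNORA71D, and the 9 included SCARNA6, SCARNA17, SCARNA21 and SNORA51. SCARNA14, SCARNA16, SNORA31 and SNORA71D each had equal raw counts in a stiff and a soft library, so their groups separated only after scaling. SCARNA14, for example, had 1, 5 and 1 counts in stiff and 1, 1 and 1 in soft. Scaled library sizes were mostly smaller in stiff, so such ties mostly count as higher in stiff.

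**Figure D4:**
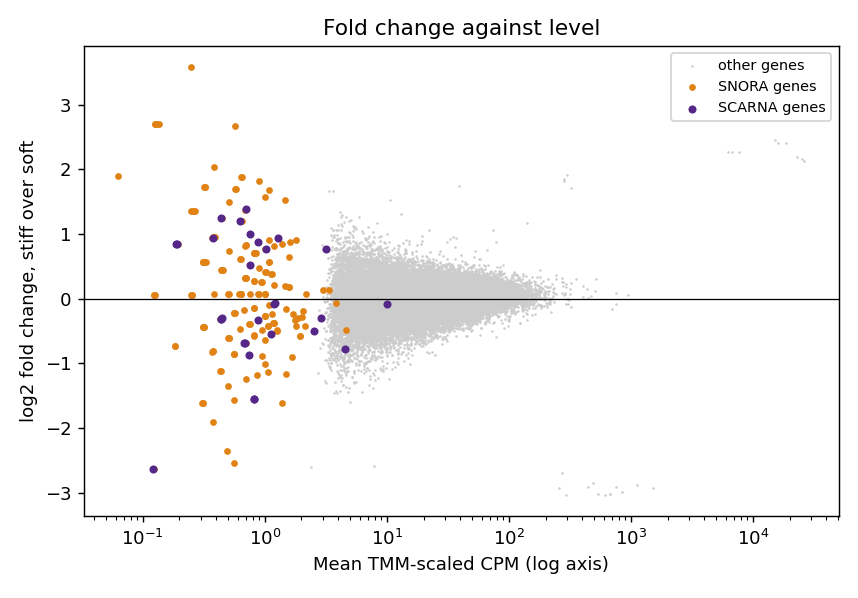
Log2 fold change of stiff over soft against mean TMM-scaled CPM (log axis) from the edgeR fit that kept every member, with each point a gene. Members spread widely at low levels around a median of 0.07, and SCARNA2, at 10.1 CPM, lies at −0.09.

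The 7 members with an unadjusted p under 0.05 in that fit, picked out after their values were seen, rested on few counts and moved both ways. SNORA115 summed to 8 counts in stiff and 1 in soft, SNORA74C-1 to 13 in stiff and 4 in soft, and SNORA66 to 11 in stiff and 3 in soft. SNORA48 had its 4 counts in stiff replicate 2 and 0 in soft. SNORA20, in TCP1, summed to 1 in stiff and 8 in soft. The SNORA71 family held members at both ends, with SNORA71B of SNHG17 at 17 counts in stiff and 6 in soft and SNORA71E of SNHG11 at 5 in stiff and 17 in soft. Their edgeR adjusted p-values were 0.444 to 0.519.

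Host genes on the same strand that were themselves in the count table numbered 117 and carried 150 of the members. Members hosted by SNHG genes, long non-coding genes that mainly serve as snoRNA hosts, had a median of 25.6 counts per kb (18 members). Those hosted by ribosomal protein genes had 19.7 (18 members), against 10.4 for 114 members in other hosts. A member lying in several genes was filed under a single host. Thus SNORA73A, SNORA73B, SNORA74A, SNORA74D and SCARNA16, which also lie in SNHG genes, were filed with the other hosts. Under RCC1, MATR3 and SEC14L1 they had medians of 8.49, 10.7 and 9.80 counts per kb, so the contrast depends partly on this filing. An annotated exon of a gene on the same strand, the host or another, overlapped 12 members in SNHG hosts and 13 in ribosomal protein hosts. In other hosts it overlapped 28 of 114. Per kb of exon the SNHG hosts themselves had a median of 13.9 counts, the ribosomal protein hosts 6.37 and the other hosts 12.1. Members and hosts had a Spearman rho of 0.27 per kb across 150 members. Members in ribosomal protein genes summed to 43, 49 and 44 counts in stiff and 32, 50 and 30 in soft, a ratio of scaled levels of 1.28 with a counting interval of 0.989 to 1.66. Soft replicate 2 lay within the stiff range, so these groups overlapped. TAF1D carried the most, with 6 (SNORA1, SNORA8, SNORA18, SNORA25, SNORA32 and SNORA40), which summed to 6, 8 and 11 counts in stiff and 5, 15 and 6 in soft. Of 112 hosts tested 1 was called, where 0.451% of all genes tested were. This was TPT1, higher in stiff, with 128, 110 and 118 counts in stiff and 66, 62 and 65 in soft. SNORA31, which lies within it, had 1, 2 and 1 counts in stiff and 1, 0 and 0 in soft.

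Genes of the particle and of its assembly were not called between the matrices. Of 30 genes on the list 29 were tested and 0 had an edgeR adjusted p under 0.05 in either direction, against 0.451% of all genes tested. Before adjustment 1 had an edgeR p under 0.05, where 9.51% of all genes tested did. The median log2 fold change of the 29 was 0.02, with 16 above 0. Per kb of exon the list had a median of 14.2 counts (range 5.38 to 53.1). Olfactory receptor genes had 11.4 (interquartile range 8.87 to 15.9), and whether the list lay above such a background was not tested. DKC1, the pseudouridine synthase, had 45, 57 and 69 counts in stiff and 41, 70 and 64 in soft (log2 fold change 0.04 ± 0.19, adjusted p = 0.978). The other core proteins were lower in CPM, which is not scaled to gene length. Per kb of exon NHP2 stood above DKC1 (15.2 against 13.7 counts), while GAR1 and NOP10 stood below DKC1. NHP2 stood at 8.43 ± 3.08 CPM in stiff and 8.96 ± 2.31 in soft (adjusted p = 0.962), and GAR1 at 5.04 ± 0.542 in stiff and 5.14 ± 1.37 in soft (adjusted p = 0.990), while NOP10, with 4, 5 and 5 counts in stiff and 11, 7 and 4 in soft, did not pass the filter (SD, n = 3 each).

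Cajal body and telomerase genes were not called either. WRAP53, which brings RNAs with a Cajal body box to that body, stood at 24.4 ± 2.68 CPM in stiff and 30.3 ± 3.31 CPM in soft (log2 fold change −0.32 ± 0.17, edgeR adjusted p = 0.560), and its groups did not overlap. Among all genes with any count, 6.36% lay lower in stiff and 6.93% higher in stiff without overlap of the groups. COIL, the coilin scaffold, stood at 19.4 ± 4.32 CPM in stiff and 15.1 ± 2.38 CPM in soft (0.37 ± 0.22, adjusted p = 0.616). TERC, the telomerase RNA, itself an H/ACA RNA of Cajal bodies outside the naming rule, had 31, 13 and 30 counts in stiff and 32, 18 and 21 in soft. TERT, the telomerase protein, had 246, 279 and 259 counts in stiff and 233, 225 and 225 in soft, groups that did not overlap. It was the gene with the unadjusted p under 0.05 and missed the threshold over all genes (log2 fold change 0.27 ± 0.09, adjusted p = 0.219). Under library totals alone its log2 fold change was 0.0050, beside −0.27 for the median gene.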

How the data were processed

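The authors deposited raw counts of reads per gene symbol, with no normalization. Per the labels' protocols, about 10 ng of total RNA gave directional libraries with 9 PCR cycles, read in pairs of 61 bp. Per the submitters' processing notes, the tools were FastQC 0.11.7, Trim Galore 0.4.2, cutadapt 1.9.1, STAR 2.6.1e, featureCounts 1.6.2 and DESeq2 1.26.0 with build hg38. Not given in the sources used here were the gene annotation, the strand setting and what was done with reads on overlapping genes or with several alignments. Libraries made this way are not selected for small RNAs, and how well they hold RNAs of this length was not tested.

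The test of stiff against soft ran on the whole table in edgeR 4.0.16 (under R 4.3.3), with TMM factors, filterByExpr (7093 genes removed), robust quasi-likelihood fits, two-sided F tests and Benjamini-Hochberg adjustment over all genes tested, with a threshold of 0.05. Standard errors came from the F statistic. One stiff library's description repeats another's replicate number, and the number in its title was used. The fit was tested on simulated data of genes that passed the filter on low counts. That test says nothing of the 207 members that did not pass it. CPM used TMM-scaled library sizes. Intervals are exact conditional Poisson ones at 95% and cover counting error only, since copies made by PCR cannot be told from separate molecules here. Lengths and places came from RefSeq (GRCh38.p14), which held all 211 members, and strand, hosts, exons and sequences from GENCODE 29. MicroRNA host genes were left out of the microRNA set. Some sequences are not reported here.

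Named members were the 20 with the highest mean CPM, any called, and among those tested the 5 highest and 5 lowest log2 fold changes and the 5 lowest p-values, which took in all 4. Members of the role groups, and others where the text says so, were named besides. From the pathway list the core proteins, WRAP53, COIL, TERC and TERT were named. Members, groups by role and lists were chosen with earlier results of these data known. Alternatives were other scalings, filters, limma-voom (limma 3.58.1), DESeq2 1.42.0, a replicate block and leaving out each library.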

Additional observations from a re-analysis of the deposited data

How the results depend on the processing

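No member was called in any of the 16 alternative fits, but the filter of 30 counts in 3 libraries left no member to test, and DESeq2 with its filter on mean count gave none an adjusted p. All genes called numbered 140, against 4194 under library totals alone, 91 with limma-voom, 67 with DESeq2 and 43 with DESeq2 without its filter on mean count. They numbered 85, 60 and 75 without stiff replicate 1, 2 or 3, and 95, 77 and 136 without soft replicate 1, 2 or 3. Under library totals 2 pathway genes were called, WRAP53 among them (log2 fold change −0.59, edgeR adjusted p = 0.0156). The pooled ratio was 0.843 as a share of all counts, 0.858 for SNORA and 0.790 for SCARNA genes, and 0.994 to 1.05, 1.01 to 1.05 and 0.890 to 1.04 when a library was left out. Among members in introns or outside genes and of known strand, chosen after the data were seen, the SNORA ratio was 1.08. Log2 fold changes turned sign, with none called, for DKC1 (−0.23) and TERC (−0.13) under library totals. Leaving out a library gave −0.20 to 0.053 for SCARNA2, −0.50 to 0.13 for SNORA99, −0.16 to 0.18 for DKC1, −0.38 to 0.17 for NHP2, −0.20 to 0.18 for GAR1 and −0.10 to 0.47 for TERC, and without a change of sign −0.86 to −0.11 for SNORA114 and 0.17 to 0.50 for COIL. The cause was not tested.

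Pairing of the samples by replicate number was not seen: deviations of same-numbered libraries correlated at −0.0036 to 0.0035. Counting error weakens such correlations, so a pairing could be missed. With the replicate block 173 genes and 0 members were called. Counts of a few per library limit what single members can show.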
